A study of Mus musculus with 3 samples.

Results

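The genes of 9 cholesterol synthesis enzymes, Hmgcs1, Idi1, Fdps, Fdft1, Sqle, Lss, Cyp51, Msmo1 and Dhcr7, were followed in single-cell RNA-seq counts of cells sorted from the developing mouse neocortex (NCx). These 9 genes, set by name, are among the 31053 genes counted in each library, and all 9 had UMIs (unique molecular identifiers, one per captured mRNA) in the kept cells of every library. The cells came from SstCre/+;RCE mice on a C57Bl/6 background, in which Cre made from the Sst locus turns on EGFP at the Rosa26 locus, so that GFP marks any cell with past or present Sst expression, and a GFP+ cell is not proven to be of 1 type. There was 1 library of GFP+, DAPI-negative cells per stage, pooled from 6 animals for the E16.5 library and from 3 each for P1 and P5, and every animal carried both alleles, so that animals without them were not compared. No further treatment or genotype was compared.

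Cells were set side by side in the following groups within each library. Nos1 cells had at least 1 UMI of Nos1, the nitric oxide synthase gene that marks long-range projection (LRP) neurons among SST+ cells, and numbered 67 in the E16.5 library, 434 in the P1 library and 547 in the P5 library. Lhx6 cells without Nos1 had at least 1 UMI of Lhx6, a transcription factor gene of inhibitory neurons born in the medial ganglionic eminence, and 0 UMIs of Nos1, and numbered 3269, 1606 and 1874. Cells entered either group only if they held more than 700 genes and under 10% mitochondrial UMIs, which 9433 of the 12324 barcodes did. Levels are given in CPM, the summed UMIs of a gene per 1000000 UMIs of the same cells. Chodl, a gene typical of LRP neurons, stood at 42.1 CPM in Nos1 cells against 7.21 in the Lhx6 cells at E16.5, at 284 against 12.1 at P1 and at 399 against 7.13 at P5. All 8 inhibitory neuron markers checked, Gad1, Gad2, Slc32a1, Lhx6, Sst, Dlx1, Dlx2 and Dlx5, had UMIs in both groups of every library. Those of Lhx6 in the Lhx6 cells follow from the definition of the group, and the sort rested on the Sst locus. UMIs in a pool of cells do not name the type of its cells. A single UMI is a low bar, so that 18, 74 and 155 of the Nos1 cells had no Lhx6 UMI.

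The libraries held between 13429055 and 25638779 UMIs, and the median kept cell had between 3293 and 5577. The P1 library stood apart, with 56.3% of its barcodes kept against 88.3% at E16.5 and 87.5% at P5, and with the highest median mitochondrial share of its kept cells, 5.92% against 4.05% and 4.21%. Between 4 and 9 barcodes of a library also occurred in another one, and at most 3 of those were kept. P1 was also the library counted with Cell Ranger 3.0.2, against 3.1.0 for E16.5 and P5. Each stage is 1 library, so no difference could be tested. Stage, library and dissociation cannot be told apart, nor can P1 from its Cell Ranger version. Each level is therefore given with its exact 95% Poisson interval and each log2 ratio with its exact conditional binomial interval, and these cover counting error only.

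Cholesterol is built from acetyl units by a chain of enzymes at the endoplasmic reticulum. Hmgcs1 encodes the synthase that makes HMG-CoA, an early intermediate. The products of Idi1 and Fdps shape the resulting isoprene units and join them to farnesyl diphosphate, which also feeds protein prenylation. Those of Fdft1 and Sqle commit it to sterols by making squalene and oxidizing it, Lss encodes the cyclase that closes the ring, and Cyp51, Msmo1 and Dhcr7 encode later enzymes that trim and reduce the sterol. The pathway is known for its feedback, in which low sterol lets SCAP carry the membrane-bound factor SREBP2 to the Golgi, where it is cut free to act on the promoters of synthesis genes, whereas INSIG proteins hold it back. Lipoprotein cholesterol does not cross the blood-brain barrier to a useful extent, so that the brain makes its own, and growing axons, synapses and myelin draw on it.

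The 9 genes are protein coding and spread over 8 chromosomes of GRCm38, so that they share no locus. Hmgcs1 (chr13:119690379-119708260) and Idi1 (chr13:8885501-8892451) lie on the plus strand of the same chromosome, as do Sqle (chr15:59315077-59331192), Lss (chr10:76531588-76557138) and Dhcr7 (chr7:143823145-143848410) on the plus strand of theirs. Fdps (chr3:89093588-89101959), Fdft1 (chr14:63145150-63179578), Cyp51 (chr5:4081145-4104746) and Msmo1 (chr8:64718139-64733792) lie on minus strands. Fdps overlaps the protein-coding gene Gm43738 on the same strand, which was also counted, so that its UMIs could have been split and its level is uncertain. Hmgcs1, Fdft1, Lss and Cyp51 overlap counted genes on the opposite strand, respectively Gm48342, Ctsb, 4930483K19Rik and Akap9.

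Promoter windows of 300 bases around the annotated start, from RefSeq on GRCm38.p6, were held for 6 of the 9 genes (8 windows, 3 of them of Dhcr7). The sterol response element by which SREBP factors are known, searched as TCACNCCAC on both strands, occurred in the window of 1 of these genes, Hmgcs1, and in 1.24% of all 32851 promoter windows. It lies upstream of the gene, and is shown here with its letters in capitals because the other 5 genes had no match to these letters, which says only that they are not in these windows:
Hmgcs1, chr13:119690194-119690242, plus strand: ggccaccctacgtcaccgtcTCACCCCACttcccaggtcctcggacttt

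The letters CCAAT, the box read by the factor NF-Y, occurred on either strand in a window of all 6 genes. By window they occurred in 6 of the 8 and in 37.4% of all promoter windows. The 6 stretches below are centred on the nearest match before the start, with the box in capitals, which reads ATTGG where it lies on the reverse strand. This box stood between 14 and 62 bases before the RefSeq start in each, and Hmgcs1 also had 1 match nearer to the start, just after it. In the GENCODE annotation, whose starts differ, those of Hmgcs1 and Lss lie upstream of the gene and those of Idi1, Cyp51, Msmo1 and Dhcr7 overlap an untranslated region of at least 1 transcript:
Hmgcs1, chr13:119690294-119690322, plus strand, 45 bases before the start: tccccgcctctcATTGGctgaaagcggat
Idi1, chr13:8885580-8885608, plus strand, 14 bases before the start: gtccaaggtgccATTGGctggcgaccgac
Lss, chr10:76531531-76531559, plus strand, 62 bases before the start: ggtgatgctctgATTGGccgagctcgcat
Cyp51, chr5:4104710-4104738, minus strand, 29 bases before the start: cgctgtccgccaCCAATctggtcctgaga
Msmo1, chr8:64733617-64733645, minus strand, 55 bases before the start: gagtggggcggaCCAATtacgacaggcga
Dhcr7, chr7:143830153-143830181, plus strand, 49 bases before the start of its most downstream window: aatccacttccgATTGGtcgtctgtgacc
A GC box, searched as GGGCGG on both strands, was also found in a window of all 6 genes. By window it was found in 7 of the 8 and in 35.7% of all promoter windows. Among the 10 other cholesterol synthesis genes of the list, with 11 windows, 9 had a CCAAT box (9 windows), 9 a GC box (9 windows) and 0 the sterol response element letters. A match is a run of letters and not a shown binding site.

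The first question was how the enzyme genes stood from E16.5 to P5 in the large group, the Lhx6 cells without Nos1. Their summed level was 617 CPM (606 to 627) at E16.5, 845 CPM (825 to 866) at P1 and 830 CPM (811 to 849) at P5, so that it was lowest in the E16.5 library and alike at P1 and P5. The members did not follow one course. Hmgcs1 and Dhcr7, near the start and the end of the chain, were higher in each later library, Fdps was lower in each later library, Fdft1 was lowest at P1, and Idi1, Sqle, Lss, Cyp51 and Msmo1 were highest at P1.

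At the start of the chain, the Hmgcs1 level was 190 CPM (185 to 196) at E16.5, 312 CPM (299 to 324) at P1 and 375 CPM (362 to 387) at P5. Its intervals did not touch between any of the libraries. Hmgcs1 gave 30.9%, 36.9% and 45.2% of the summed member UMIs in the 3 libraries. These shares say how the sum is weighted and not how its mRNA compares with that of another gene.

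In the isoprene steps, the Idi1 level was 29.8 CPM (27.5 to 32.2) at E16.5, 50.6 CPM (45.8 to 55.7) at P1 and 31.5 CPM (28.0 to 35.4) at P5. Idi1 was thus high in the P1 library only, with overlapping intervals at E16.5 and P5. Fdps, whose farnesyl product is shared with prenylation, went the other way, with 94.0 CPM (89.9 to 98.2), 63.4 CPM (58.0 to 69.2) and 39.1 CPM (35.2 to 43.3), and its share of the summed UMIs was 15.2%, 7.50% and 4.71%.

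At the commitment to sterols, the Fdft1 level was 71.9 CPM (68.4 to 75.6) at E16.5, 53.9 CPM (49.0 to 59.3) at P1 and 62.8 CPM (57.8 to 68.1) at P5. Fdft1 and Fdps, which act in sequence, were the 2 members whose level at E16.5 was above that at P1. Sqle, the next gene in the chain and one of its slow steps, stood at 74.7 CPM (71.1 to 78.5), 115 CPM (108 to 123) and 91.2 CPM (85.1 to 97.5). Lss, the ring closing cyclase, had the largest ratio of any member between libraries, from 8.48 CPM (7.28 to 9.81) at E16.5 to 31.7 CPM (27.9 to 35.9) at P1 and 27.4 CPM (24.2 to 31.0) at P5.

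Among the later sterol enzymes, the Cyp51 level varied least of the 9 between libraries, with 78.5 CPM (74.8 to 82.4), 96.4 CPM (89.7 to 103) and 84.9 CPM (79.1 to 91.0). Msmo1 stood at 46.3 CPM (43.4 to 49.2), 78.8 CPM (72.8 to 85.2) and 66.1 CPM (61.0 to 71.5). Both were highest at P1 and lowest at E16.5. Dhcr7, whose loss of function in humans causes the sterol disorder Smith-Lemli-Opitz syndrome, stood at 22.7 CPM (20.7 to 24.8), 43.7 CPM (39.2 to 48.5) and 52.2 CPM (47.6 to 57.0), and was lowest in the E16.5 library. The UMIs behind these levels ranged from 180 for Lss at E16.5 to 4041 for Hmgcs1 at E16.5.

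**Figure D1:**
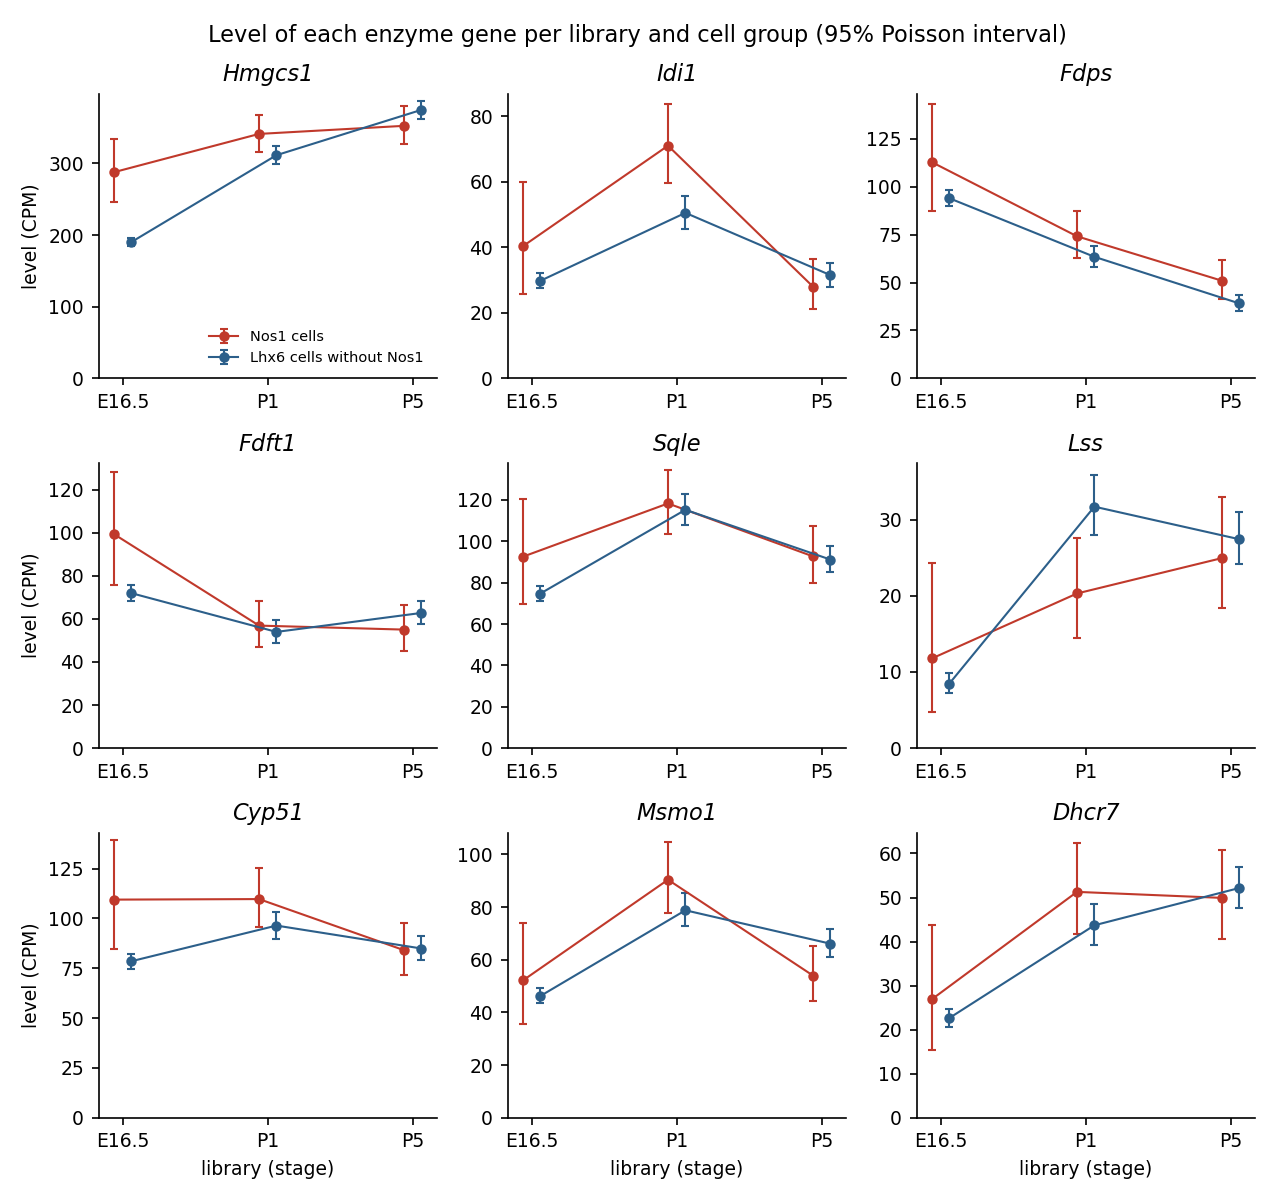
Level in CPM (vertical axes, each from 0) of each enzyme gene in the E16.5, P1 and P5 libraries (horizontal axes), in Nos1 cells (red) and Lhx6 cells without Nos1 (blue). Points are pooled UMIs of 1 library and bars 95% Poisson intervals, and a reader should see the opposite courses of Hmgcs1, from 190 to 375 CPM in the blue group, and Fdps, from 94.0 to 39.1 CPM.

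Set against E16.5, 6 of the 9 genes were at least 1.5-fold higher at P1 in these cells, counted on CPM with 1 added among genes with a mean of at least 20 CPM. They were Hmgcs1, with a log2 ratio of 0.71 (0.64 to 0.78), Idi1 with 0.76 (0.58 to 0.94), Sqle with 0.62 (0.51 to 0.74), Lss with 1.90 (1.62 to 2.19), Msmo1 with 0.77 (0.62 to 0.91) and Dhcr7 with 0.95 (0.74 to 1.15). Of all 7165 genes tested, 21.5% were as much higher, and the median log2 ratio was 0.71 for the 9 members and 0.13 for all genes. The other 3 lay within the limit, Cyp51 at 0.30 (0.17 to 0.42), Fdps at -0.57 (-0.71 to -0.43) and Fdft1 at -0.42 (-0.57 to -0.26), so that 0 members were called lower where 12.6% of all genes were. Fdps and Sqle lay close to the limit on either side. Lss reached the minimum mean only through its P1 level, with 8.48 CPM at E16.5 and 31.7 CPM at P1. At a minimum mean of 50 CPM, 3 of 6 members tested were called higher, against 19.8% of all genes.

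The summed level had a log2 ratio of 0.45 (0.41 to 0.50) of P1 over E16.5. This size rests on which P1 cells are kept. With only cells of over 1000 genes and under 5% mitochondrial UMIs, which left 357 of the 1606 P1 cells, it was 0.22 (0.12 to 0.32), with Hmgcs1 at 0.39, Sqle at 0.28 and Cyp51 at 0.12 (-0.18 to 0.40), whose interval then held 0, whereas Lss (1.93), Dhcr7 (0.93), Msmo1 (0.71) and Idi1 (0.60) stayed near their values. Without the cells that held a UMI of an immediate early gene, a class of genes that dissociation can induce, it was 0.71 (0.65 to 0.77). Fos, one such gene, stood at 95.3 CPM at E16.5 and 8.74 CPM at P1 in the Lhx6 cells.

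The move from P1 to P5 was mixed. In the Lhx6 cells without Nos1, 2 of the 9 genes were at least 1.5-fold lower at P5, Idi1 with a log2 ratio of -0.68 (-0.90 to -0.46) and Fdps with -0.70 (-0.90 to -0.50), where 22.9% of all 7229 genes tested were called lower. No member was called higher (0 of 9, against 18.2% of all genes). The intervals lay above 0 for Hmgcs1 at 0.27 (0.19 to 0.34), Dhcr7 at 0.26 (0.05 to 0.46) and Fdft1 at 0.22 (0.04 to 0.40), and below 0 for Sqle at -0.34 (-0.47 to -0.20), Msmo1 at -0.25 (-0.42 to -0.09) and Cyp51 at -0.18 (-0.33 to -0.04). That of Lss, -0.21 (-0.47 to 0.05), held 0. Several of these rest on the cells kept, since under the stricter filter the intervals of Sqle at -0.08 (-0.36 to 0.22), Msmo1 at -0.31 (-0.63 to 0.03), Cyp51 at -0.05 (-0.35 to 0.26) and Dhcr7 at 0.14 (-0.28 to 0.58) held 0. Those of Hmgcs1 at 0.61, Fdft1 at 0.49, Idi1 at -0.55 and Fdps at -0.61 left it out there too. The summed ratio of -0.03 (-0.07 to 0.02) was the balance of these, and was -0.23 (-0.29 to -0.17) without Hmgcs1 and 0.17 (0.07 to 0.27) under the stricter filter.

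**Figure D2:**
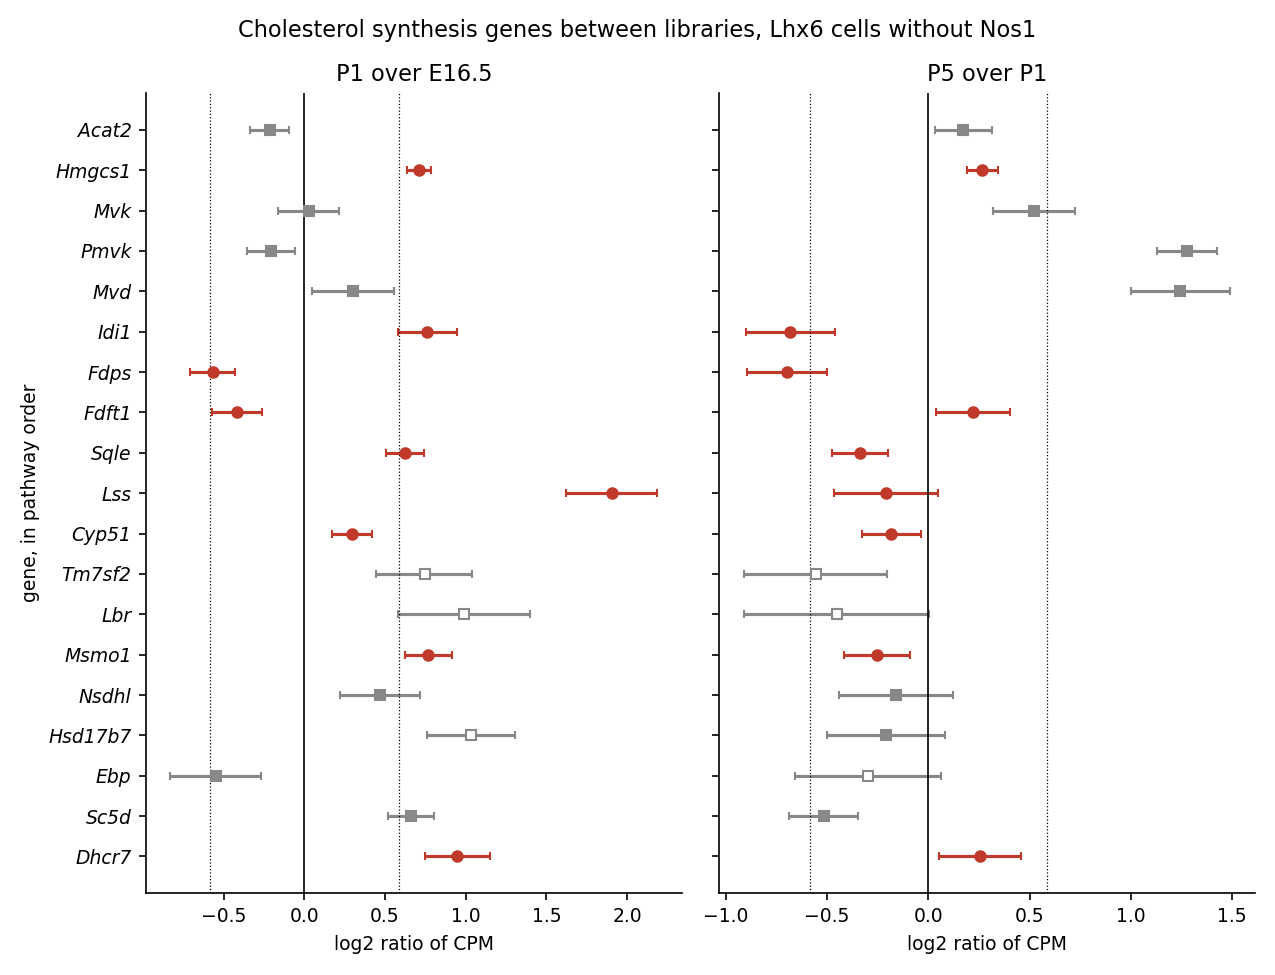
Log2 ratio of CPM (horizontal axes) of P1 over E16.5 (left) and P5 over P1 (right) in Lhx6 cells without Nos1 for 19 cholesterol synthesis genes in pathway order (vertical axis), with members as red circles, other enzymes as grey squares and open squares for genes under a mean of 20 CPM. Bars are 95% counting intervals and dotted lines mark 1.5-fold, and a reader should see Lss at 1.90 on the left and the opposite signs of Hmgcs1 (0.27) and Idi1 (-0.68) on the right.

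Nos1 cells, the candidate LRP neurons, had a different course of the sum, which was 833 CPM (761 to 910) at E16.5, 933 CPM (891 to 977) at P1 and 792 CPM (753 to 832) at P5. Excitatory neuron markers in these cells went from 604 to 156 and 6.11 CPM over the same stages. Without the cells that had 2 or more UMIs of markers of other cell types the sum was 898 CPM (803 to 1001), 895 CPM (851 to 942) and 799.9 CPM (759.9 to 841), so that P1 was not the highest there. It stayed the highest under the stricter filter, at 902, 928 and 787 CPM, and in Nos1 cells that also had an Lhx6 UMI, at 858, 911 and 780 CPM. The intervals of E16.5 and P1 overlapped in each of these settings. From E16.5 to P1, of the 8 members tested, 3 were called higher, Idi1 at a log2 ratio of 0.82 (0.18 to 1.51), Msmo1 at 0.79 (0.24 to 1.39) and Dhcr7 at 0.93 (0.16 to 1.79), against 24.1% of all genes, and 2 were called lower, Fdps at -0.61 (-1.03 to -0.17) and Fdft1 at -0.80 (-1.27 to -0.32), against 15.4%. Lss was not tested there because its mean of the 2 levels, 11.8 CPM at E16.5 and 20.3 CPM at P1, was under 20 CPM. With a minimum mean of 5 CPM it was tested and 4 of 9 members were called higher, against 27.9% of all genes. From P1 to P5, 2 members were called lower, against 25.6% of all genes, and 0 higher, against 15.3%. Idi1 went from 71.1 CPM (59.8 to 83.9) to 28.0 CPM (21.1 to 36.5), a log2 ratio of -1.34 (-1.82 to -0.88), and Msmo1 from 90.4 CPM (77.6 to 105) to 54.0 CPM (44.2 to 65.3), a log2 ratio of -0.74 (-1.10 to -0.39). The sum of the members had a log2 ratio of -0.24 (-0.33 to -0.14) of P5 over P1, and -0.43 (-0.56 to -0.30) without Hmgcs1, whose own ratio in Nos1 cells was 0.05 (-0.11 to 0.20).

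The second question was whether Nos1 cells differed from the Lhx6 cells without Nos1 of the same library. The summed enzymes were higher in Nos1 cells at E16.5, with a log2 ratio of 0.43 (0.30 to 0.56), less so at P1, with 0.14 (0.07 to 0.22), and at P5 the ratio was -0.07 (-0.15 to 0.01). The change in this ratio between stages was not tested, since each stage is 1 library.

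At E16.5 the log2 ratio was above 0 for all 9 members, and its interval lay above 0 for 3. Hmgcs1 stood at 288 CPM (246 to 334) against 190 CPM, a log2 ratio of 0.60 (0.37 to 0.82), and was the 1 of 8 members tested that was at least 1.5-fold higher, against 7.09% of all 6880 genes. Fdft1 stood at 99.3 CPM (75.6 to 128) against 71.9 CPM, at 0.47 (0.06 to 0.84), and Cyp51 at 109 CPM (84.4 to 139) against 78.5 CPM, at 0.48 (0.10 to 0.84). No member was called lower (0 of 8, against 6.9% of all genes). For the other 6 the interval held 0, and with 495 UMIs over all members in 67 cells, differences of this size were not detectable for Lss (7 UMIs), Dhcr7 (16) or Idi1 (24) at this depth.

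At P1 the interval lay above 0 for Idi1, at 71.1 CPM (59.8 to 83.9) against 50.6 CPM and a log2 ratio of 0.49 (0.20 to 0.77), and barely for Hmgcs1, at 0.13 (0.01 to 0.25). Lss was the exception, with 20.3 CPM (14.5 to 27.7) in Nos1 cells against 31.7 CPM (27.9 to 35.9), a log2 ratio of -0.64 (-1.16 to -0.16), and was the 1 member called lower, against 4.69% of all 7372 genes. Under the stricter filter on cells Lss at -0.44 (-1.30 to 0.36) no longer left out 0, whereas Hmgcs1 at 0.43, Idi1 at 0.86 and Fdps at 0.54 did. In the cells first kept, no member was called higher (0 of 9, against 4.3%). At P5 0 of 9 members were called in either direction, where 5.03% of all 6844 genes were called higher and 8.59% lower. Fdps alone had an interval that left out 0, with 50.9 CPM (41.4 to 62.0) in Nos1 cells against 39.1 CPM, a log2 ratio of 0.38 (0.05 to 0.70). It held 0 under the stricter filter, at 0.29 (-0.08 to 0.63), and with Nos1 cells that also had an Lhx6 UMI, at 0.35 (-0.02 to 0.71), where Msmo1 at -0.35 (-0.70 to -0.02) left it out instead.

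Markers of other cell types also differed between Nos1 cells and Lhx6 cells without Nos1 at E16.5 and P1. All 6 excitatory neuron markers used (Neurod2, Neurod6, Slc17a6, Slc17a7, Tbr1 and Emx1) had UMIs in both groups at these stages, and their summed level was 604 CPM in Nos1 cells against 8.53 CPM in the Lhx6 cells at E16.5, 156 against 9.49 CPM at P1 and 6.11 against 2.92 CPM at P5, where Slc17a6 and Emx1 were at 0 in Nos1 cells. The 7 astrocyte and radial glia markers were also higher in Nos1 cells at E16.5, at 33.7 against 5.09 CPM, while at P1 and P5 they were lower, at 8.12 against 9.49 and 6.62 against 10.4 CPM. Oligodendrocyte lineage markers stood between 47.1 and 56.0 CPM in Nos1 cells and between 31.5 and 38.4 CPM in the Lhx6 cells, with Olig1, Olig2 and Sox10 at 0 in Nos1 cells of every library, and microglia and vascular markers reached at most 4.07 CPM in either. Without the cells that had 2 or more UMIs of excitatory, glial, microglial or vascular markers, 47 Nos1 cells were left at E16.5. Their excitatory level of 0 CPM follows from that removal. The enzymes stood at 898 CPM (803 to 1001) in them, with a log2 ratio of 0.55. Cells with fewer than 2 such UMIs stayed in whatever their type, and the part of other cell types was not tested. In that setting Hmgcs1 was at 0.83 (0.56 to 1.09), Cyp51 at 0.72 (0.27 to 1.14) and Idi1 at 1.06 (0.38 to 1.67), whereas Fdft1 at 0.25 (-0.31 to 0.76) no longer left out 0. At P1 the ratio of the sum was 0.09 in the same setting, and Hmgcs1 at 0.06 (-0.08 to 0.20) no longer left out 0. Idi1 at 0.34 (0.02 to 0.66), Fdps at 0.33 (0.04 to 0.61) and Lss at -0.78 (-1.38 to -0.23) left it out.

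With Nos1 cells that also had an Lhx6 UMI, 49 at E16.5 and 360 at P1, the ratios of the sum were 0.48 and 0.11, at excitatory levels of 75.3 and 58.7 CPM. The stricter filter on cells gave 0.52 at E16.5 but 0.34 (0.20 to 0.48) at P1, where the Lhx6 cells then stood at 734 CPM (687 to 782), and all deposited barcodes gave 0.01 at P1, so that the size of the P1 difference depends on the filter. Nos1 cells were deeper than the Lhx6 cells at E16.5, with a median of 7863 against 5808 UMIs, and shallower at P5, with 3073 against 4752.5. Averaged over 5 bins of depth the ratios were 0.41, 0.18 and -0.11. At E16.5 only bins 4 and 5 held the 10 Nos1 cells a bin needed, so that 0.41 rests on those bins. In bin 4 the Nos1 cells stood at 921 CPM (743 to 1130) against 572 CPM (551 to 593). In bin 5, with 31 of the 67 Nos1 cells, they stood at 831 CPM (743 to 926) against 744 CPM (726 to 763). The part of depth in the E16.5 difference was not tested.

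**Figure D3:**
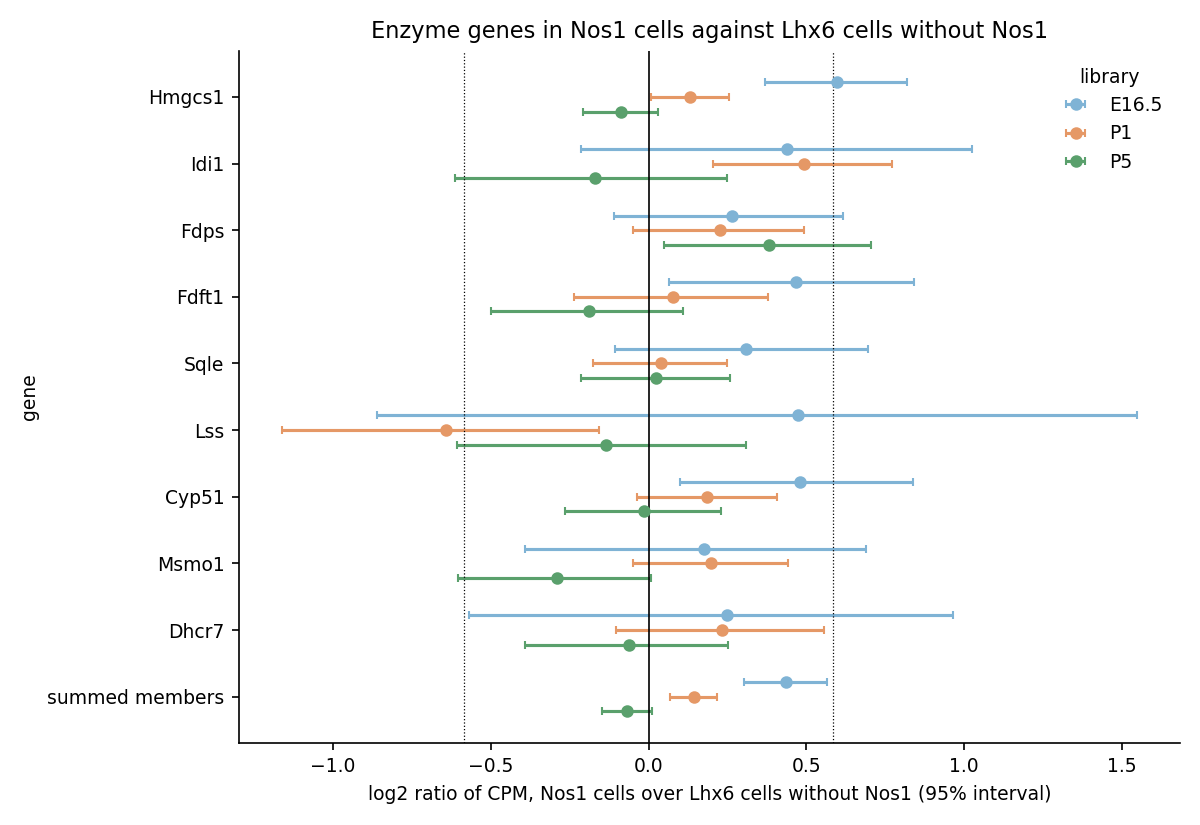
Log2 ratio of CPM in Nos1 cells over Lhx6 cells without Nos1 (horizontal axis) for each enzyme gene and their sum (vertical axis), by library in colour, with 95% counting intervals as bars and 1.5-fold as dotted lines. The E16.5 points lie right of 0 for all 9 genes, the sum goes from 0.43 at E16.5 to -0.07 at P5, and Lss lies at -0.64 at P1.

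Between other groups of cells the sum varied as much as between libraries. Cells with Neurod2 or Neurod6 and no Gad1, Gad2 or Lhx6 UMI (37, 37 and 21 cells) held 1141 CPM (1038 to 1252), 1357 CPM (1191 to 1540) and 1125 CPM (916 to 1369), the highest of the kept groups in each library. Among the Lhx6 cells without Nos1, those with a UMI of Tac1, a tachykinin gene found in non-Martinotti cells, held 571 CPM (528 to 617), 723 CPM (646 to 807) and 692 CPM (627 to 762). Those with Nr2f2, a gene found in Martinotti cells, held 691 CPM (671 to 712), 1031 CPM (987 to 1076) and 775 CPM (741 to 810), so that their excess over the whole group at E16.5 and P1 was not present at P5. Those with Reln, the gene of the secreted protein reelin, held 657, 948 and 853 CPM. Those with Cxcr4, a chemokine receptor gene of migrating interneurons, held 510 CPM (493 to 527) at E16.5, the lowest of all groups there, 864 CPM (825 to 905) at P1 and 932 CPM (797 to 1083) in the 35 such cells at P5. These groups share cells with one another and differ in depth, with a median of 8532 UMIs in the Nr2f2 cells at P1 against 3811 in all the Lhx6 cells without Nos1, and the part of depth in these differences was not tested.

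**Figure D4:**
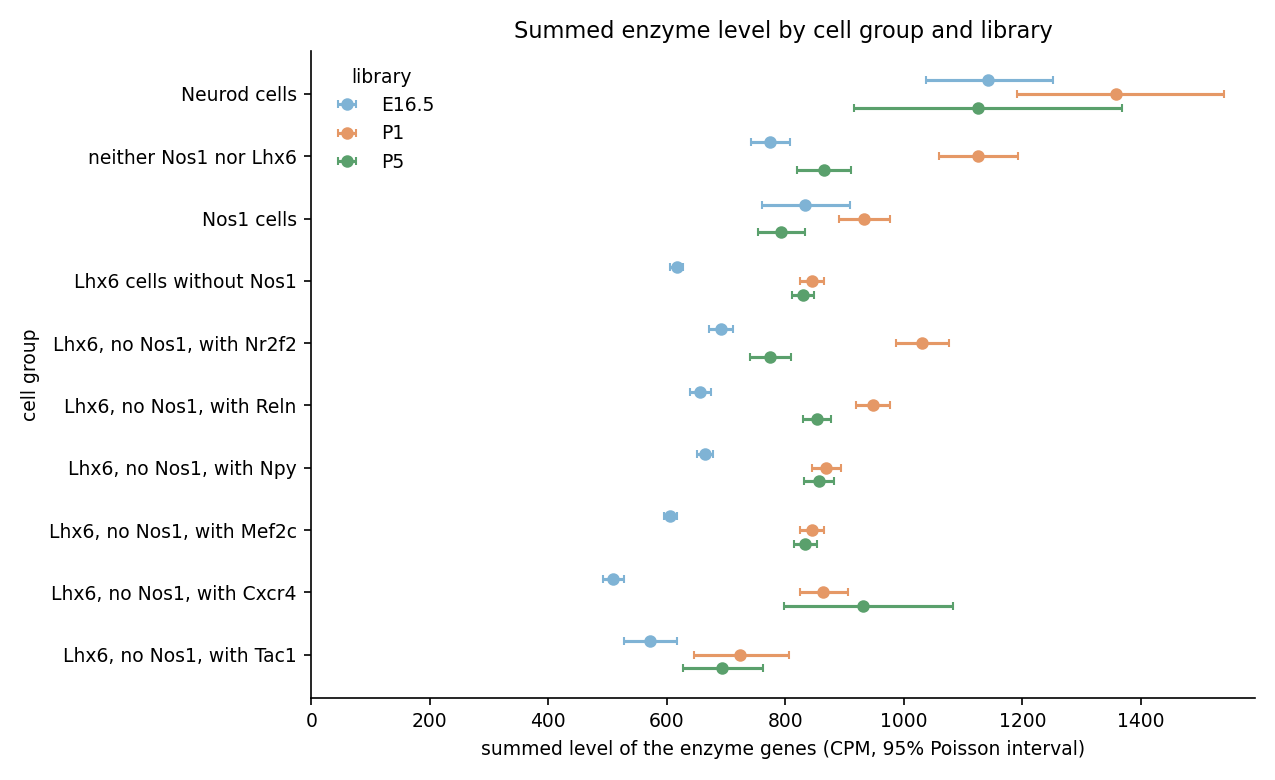
Summed level of the 9 enzyme genes in CPM (horizontal axis, from 0) in groups of kept cells named by the genes they had UMIs of (vertical axis), by library in colour, with 95% Poisson intervals as bars. The Neurod cells lie highest in each library, at 1141, 1357 and 1125 CPM, and the Tac1 cells lowest at P1 (723 CPM) and P5 (692 CPM).

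The rest of the pathway was read from fixed lists of genes. Of 10 other cholesterol synthesis enzymes, 7 could be tested between E16.5 and P1 in the Lhx6 cells without Nos1, of which 1 was called higher, against 21.5% of all genes, and 0 lower, against 12.6%, with a median log2 ratio of 0.03. It was Sc5d, which encodes a desaturase late in the chain, from 50.3 to 79.4 CPM. From P1 to P5, Pmvk and Mvd, which encode the kinase and the decarboxylase that act just before Idi1, were called higher, from 63.9 to 155 CPM and from 23.6 to 55.8 CPM, which is 2 of 7 tested against 18.2% of all genes, and 0 were called lower, against 22.9%. Idi1 itself was lower over the same step. Within E16.5, 2 of 7 other enzymes were called higher in Nos1 cells, Mvk (72.4 against 40.4 CPM) and Mvd (35.3 against 19.1 CPM), against 7.09% of all genes, and 0 lower, against 6.9%. Mvd reached the minimum mean of 20 CPM there only through its level in Nos1 cells.

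Of the 7 SREBP control genes, 4 of 6 tested were called higher at P1 than at E16.5, against 21.5% of all genes, and 0 lower, against 12.6%. Srebf2, which encodes SREBP2, stood at 50.1 CPM at E16.5, 106 CPM at P1 and 90.4 CPM at P5, and Insig1, itself a target of the feedback, at 9.47, 40.1 and 31.9 CPM. Insig1, among those called higher, reached the minimum mean of 20 CPM only through its P1 level. Mbtps1 and Mbtps2 encode the proteases that free the factor, and Mbtps1 went from 31.0 to 49.9 and 27.6 CPM. From P1 to P5, Scap (36.6 to 23.3 CPM) and Mbtps1 were called lower, against 22.9% of all genes, and 0 higher, against 18.2%.

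Of 15 genes of cholesterol uptake, transport and removal, 3 of 7 tested were called higher at P1 than at E16.5 (21.5% of all genes) and 0 lower (12.6%), namely the lipoprotein receptor gene Lrp8 (110 to 239 CPM), the exporter gene Abcg4 and Cyp46a1, whose enzyme makes the hydroxysterol by which neurons dispose of cholesterol. From P1 to P5, 1 of 6 was called higher (18.2% of all genes), Cyp46a1, and 2 lower (22.9%), Lrp1 (198 to 97.6 CPM) and the cholesterol transporter gene Npc1 (49.6 to 32.4 CPM). Cyp46a1 stood at 18.7, 61.2 and 144 CPM in the 3 libraries, so that between E16.5 and P1 it reached the minimum mean only through its P1 level. Cyp46a1 was called lower in Nos1 cells than in the Lhx6 cells at P1, at 36.6 against 61.2 CPM (log2 ratio -0.74, -1.12 to -0.38), and at P5, at 61.1 against 144 CPM (-1.24, -1.52 to -0.97). Vldlr, also a lipoprotein receptor gene, was called lower in Nos1 cells at P5, at 70.8 against 120 CPM. Npc1 was called lower in them at E16.5, at 23.6 against 52.7 CPM. Of all genes, 6.9% were called lower in Nos1 cells in the E16.5 library, 4.69% in the P1 library and 8.59% in the P5 library. Cyp46a1, Vldlr and Npc1 are single genes of the list, and no departure of the list from these shares is claimed. Of the 7 fatty acid synthesis genes, 3 of 5 tested were called higher at P1 than at E16.5, again against 21.5%, Fasn, Scd2 (121 to 298 CPM) and Elovl6. The 7 genes of the isoprenoid branch, which starts from farnesyl diphosphate, summed to 195, 204 and 212 CPM, with 0 of 3 called higher and 1 lower, Fnta, from E16.5 to P1, against 21.5% and 12.6%.

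Genes of the endoplasmic reticulum stress list, which partly follows genes the study picked from these libraries, were also highest in sum at P1. The summed level of 12 such genes in the Lhx6 cells without Nos1 was 2116 CPM at E16.5, 2636 CPM at P1 and 2343 CPM at P5, and 7 of the 12 were called higher and 1 lower at P1 than at E16.5, against 21.5% and 12.6% of all genes. Within each library, Lhx6 cells in the top of 5 bins of the share of UMIs in these genes held more of the enzymes than those in the lowest bin, 780 against 486 CPM at E16.5, 1267 against 696 CPM at P1 and 1028 against 815 CPM at P5. Without the 25% of cells highest in these genes the log2 ratio of P1 over E16.5 was 0.48, and the ratios of Nos1 cells were 0.42 at E16.5 and 0.14 at P1. Lower bins differed too, with P1 Lhx6 cells at 696 CPM in bin 1 and 893 CPM in bin 4. The part of the stress genes in these ratios was not tested.

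How far the enzymes went together from cell to cell was looked at in Lhx6 cells without Nos1 thinned to 2000 UMIs each, which left out 169 of 3269 cells of the E16.5 library, 291 of 1606 of the P1 library and 201 of 1874 of the P5 library. A cell held few of these UMIs, with a median of 3 member UMIs before thinning, and pairs of members had median correlations of at most 0.03, which is no finding in counts this sparse. Cells were therefore split by the sum of the other 8 members into cells high in them, at or above the 75th percentile, and cells low in them, at or below the 25th. These limits are whole UMIs, so that the cells set apart differ between genes and libraries. For Hmgcs1 at E16.5 they took in every cell, 1610 high and 1490 low. When split by all 9 members, high cells had at least 2 UMIs in each library, and low cells had 0 at E16.5 and P1 but up to 1 at P5, where the 789 high and 884 low cells made up all 1673, so that the contrast at P5 was narrower.

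At E16.5 the log2 ratio of cells high over cells low in the other 8 was above 0 for all 9 genes, most of all Msmo1, with 75.1 CPM against 25.0 CPM (log2 ratio 1.59), followed by Sqle with 103 against 52.2 CPM (0.98) and Fdft1 with 108 against 56.2 CPM (0.95), but the interval held 0 for Lss at 0.63 (-0.44 to 1.72) and Dhcr7 at 0.56 (-0.02 to 1.14). At P1 all 9 ratios were again above 0, from 0.47 for Hmgcs1 to 1.22 for Dhcr7, with 52.4 against 22.4 CPM, and the interval held 0 for Lss at 0.49 (-0.35 to 1.39). At P5 6 of 9 were above 0, led by Sqle with 117 against 66.8 CPM (0.81), whereas Cyp51 (-0.16), Lss (-0.04) and Dhcr7 (-0.04) were not. With cells thinned to 1000 UMIs the P5 library instead had all 9 ratios above 0, the P1 library 8 and the E16.5 library 7, so that the order of the libraries depended on the thinning. At 2000 UMIs the interval left out 0 for Hmgcs1 and Sqle in all 3 libraries, and for no other gene at P5.

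**Figure D5:**
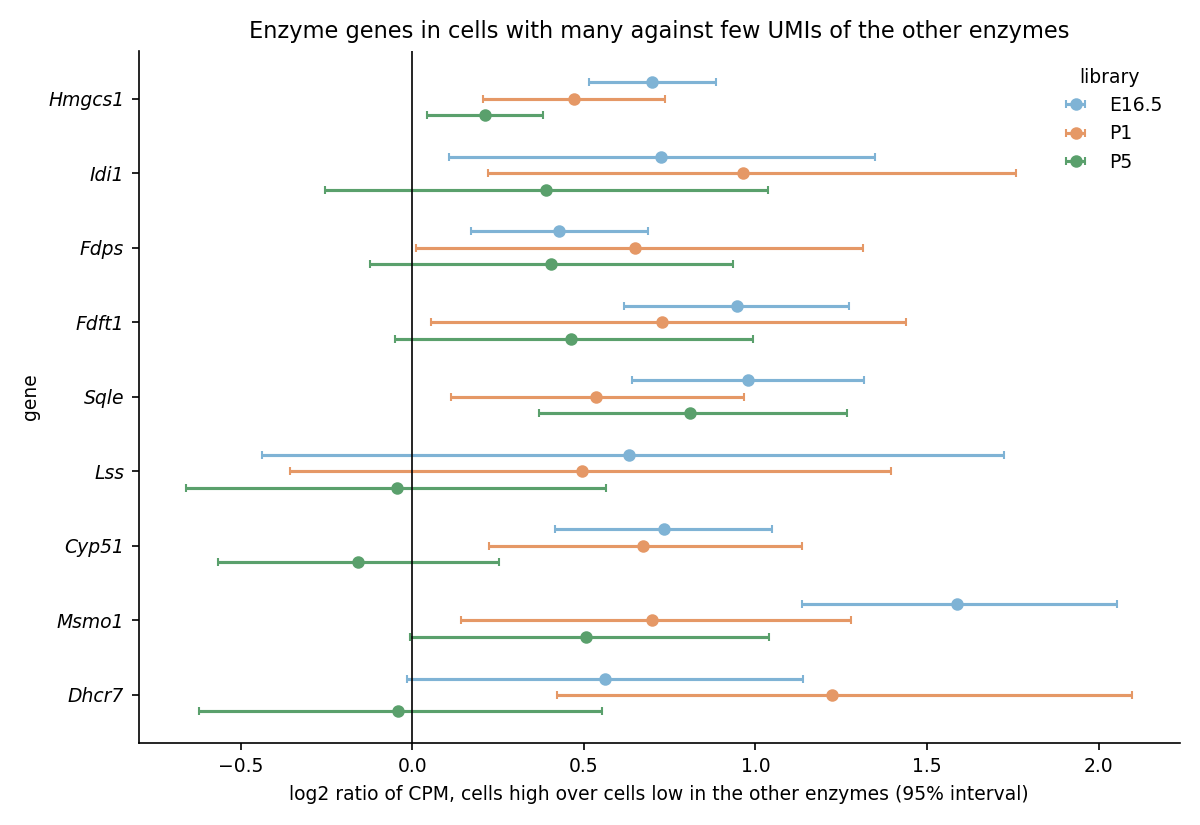
Log2 ratio of CPM (horizontal axis) in Lhx6 cells without Nos1 that were high over cells that were low in the other 8 enzymes, per gene (vertical axis) and library (colour), with 95% counting intervals as bars. A reader should see all E16.5 and P1 points right of 0, from Msmo1 at 1.59 downwards, and the P5 points of Lss, Cyp51 and Dhcr7 left of 0.

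Of the genes not used for the split, the 10 other cholesterol synthesis enzymes summed to 396 CPM in cells high in the 9 members against 290.4 CPM in cells low in them at E16.5 (log2 ratio 0.45, 0.30 to 0.60), to 422 against 319.6 CPM at P1 (0.40, 0.17 to 0.63) and to 546 against 475 CPM at P5 (0.20, 0.06 to 0.34). With cells thinned to 1000 UMIs, and low cells at 0 member UMIs in each library, the ratios were 0.35 (0.18 to 0.53), 0.10 (-0.13 to 0.33) and 0.36 (0.17 to 0.55), so that the one at P1 no longer left out 0. Of the 3 that could be tested singly, 0 were at least 1.5-fold higher in any library, where 2.45% (E16.5), 3.67% (P1) and 0.818% (P5) of the 4522 genes tested outside the members were. The genes with the largest value for the lowest of their 3 log2 ratios included Adam23, Sprn, Lingo1, Ddrgk1, Igsf8, Neo1, Pcyt2, Fkbp2 and Scd2, of which Pcyt2 serves phospholipid and Scd2 fatty acid synthesis. Their lowest ratios lay between 0.36 and 0.46, against a median of -0.14 over the 4522 genes. They were picked as the highest by this same value, and a shared function among them was not tested. Lingo1, a neuronal membrane protein gene known for limiting myelination, had the largest ratios of these at E16.5 and P1, with 54.1 against 25.4 CPM at E16.5 and 50.0 against 23.4 CPM at P1, and had 88.7 against 65.0 CPM at P5. For Sprn the interval held 0 at E16.5 and P1.

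The fatty acid synthesis list had log2 ratios of 0.28 (0.14 to 0.42), 0.40 (0.24 to 0.57) and 0.15 (0.03 to 0.27) between the same cells. The uptake, transport and removal list had -0.01, 0.01 and 0.05, with intervals that held 0 in each library. The SREBP control list had 0.26, 0.02 and 0.01, and only the first left out 0. Beside these, the endoplasmic reticulum stress list had 0.23, 0.29 and 0.22, and the immediate early genes 0.48 (0.31 to 0.66) at E16.5. Of these, the stress list alone left out 0 in all 3 libraries at 1000 UMIs too, with 0.11, 0.32 and 0.18. At that depth the interval held 0 for fatty acid synthesis at P1 (0.11, -0.05 to 0.28) and P5 (0.15, -0.01 to 0.32), for SREBP control at E16.5 (0.06, -0.17 to 0.29) and for the immediate early genes at E16.5 (0.14, -0.06 to 0.33). It left out 0 for the uptake list at P1 (0.18, 0.02 to 0.34) and, on the low side, for the immediate early genes at P1 (-0.78, -1.32 to -0.25). High cells were also deeper before thinning to 2000 UMIs at E16.5, with a median of 6485 against 5672.5 UMIs, and at P1, with 4940.5 against 4061, and the part of depth, stress and immediate early genes in the split was not tested. In the Nos1 cells, split the same way, the ratio of the other enzymes at E16.5 was -0.11 (-0.90 to 0.65), from 27 cells against 38.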

How the data were processed

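Gene counts of single cells were analysed from 3 10x Genomics libraries of GFP+ cells, 1 per stage. The authors aligned reads to GRCm38 with STAR in Cell Ranger (3.1.0 for E16.5 and P5, 3.0.2 for P1) and deposited whole-number UMI counts per gene and barcode, with no normalization. Cells with more than 700 genes and under 10% mt- UMIs were kept. The further cutoffs of the study, on aligned reads and on the natural log of UMIs, were not used here (the latter only as an alternative), so that more cells were kept than in the study. Doublets were left in, with a setting without the 5% of cells with most UMIs.

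UMIs were summed per group and library and divided by all UMIs of the group (CPM). Intervals were exact Poisson for levels and exact conditional binomial for ratios (95%). A gene was called when its CPM, with 1 added, differed at least 1.5-fold, among genes with a mean of at least 20 CPM. Cells were thinned to 2000 UMIs with a fixed seed where split by enzyme level. The text names the 9 members, genes of fixed lists and, from the 10 genes with the largest lowest log2 ratio between split cells among those with at least 100 thinned UMIs in each library, those reported here. Some genes of the fixed lists are not reported here and entered no list sum or count. The members and lists were chosen with earlier results of these data known, and the genes in the list of endoplasmic reticulum stress and the marker lists partly follow the study. 2 settings, without cells holding an immediate early gene UMI and with Nos1 cells that also hold Lhx6, were chosen after seeing the data. Promoter windows came from RefSeq (GRCm38.p6) and gene positions from GENCODE. Scripts were tested on simulated data and used Python 3.11.15, numpy 2.4.6, scipy 1.17.1, pandas 2.3.3 and matplotlib 3.10.9.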

Additional observations from a re-analysis of the deposited data

Results flagged for a closer look

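The enzymes were also counted in barcodes that the comparisons above do not use. In the barcodes that failed the filters on cells (526 in the E16.5 library, 1939 in the P1 library and 426 in the P5 library), the 9 genes summed to 830, 1305 and 1160 CPM in this order, which is 1.30, 1.47 and 1.40 times the level in the kept cells. The excess was uneven along the chain. Sqle was 1.90, 2.22 and 2.02 times and Cyp51 1.95, 2.43 and 2.22 times as high as in kept cells, whereas Hmgcs1 was 0.989, 1.02 and 0.806 times and Idi1 0.767, 0.658 and 0.739 times as high. These barcodes had medians of 1473, 2143 and 1034.5 UMIs and of 944, 1265 and 699 genes, so that the median at P5 was itself under the gene limit. The mitochondrial shares of their summed UMIs were 12.8%, 14.3% and 11.1%, and the part of these properties in the differences was not tested.

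In the kept cells with neither a Nos1 nor an Lhx6 UMI (616, 461 and 559 cells), the sum was 775, 1125 and 864 CPM, above the Lhx6 cells without Nos1 in each library. They had medians of 3947.5, 1559 and 2469 UMIs, fewer than the Lhx6 cells in each library.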

How the results depend on the processing

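Of 198 recomputed values, 155 were counted as keeping their direction and side, 42 as moved by more than their counting interval or past the count limit, and 1 as turned. The summed P5 over P1 ratio in Lhx6 cells, whose main interval held 0, ranged from -0.23 to 0.17. Its values above 0 were not counted as turned, although the main value was below 0. No paired analysis was possible because each stage is 1 library, and no replicate could be left out. Causes were not tested unless the setting itself gives them. For the summed log2 ratios (Nos1 over Lhx6 cells at E16.5 and P1, then, in Lhx6 cells, P1 over E16.5 and P5 over P1), all deposited barcodes gave 0.013 at P1, 0.64 and -0.21. Over 1000 genes and under 5% mitochondrial UMIs gave 0.34 at P1, 0.22 and 0.17. At least 2 Nos1 UMIs gave 0.61 at E16.5. Without the 5% of cells with most UMIs it was 0.67 at E16.5, and P5 over P1 0.045. Mean per-cell CPM gave 0.51 and 0.041 for the 2 steps between stages, 5 depth bins 0.53 and 0.030, and thinning to 2000 UMIs 0.094 for the later step. Without Hmgcs1 the values were 0.32 and -0.23, and -0.43 for P5 over P1 in Nos1 cells. Without cells holding an immediate early gene UMI, chosen after seeing the data, they were 0.64 at E16.5 (13 Nos1 cells), 0.71 and 0.063. The P5 ratio of Nos1 over Lhx6 cells stayed between -0.12 and -0.03.

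Members called higher in Nos1 cells at E16.5 numbered 0 with 10 CPM added or at 2-fold and 4 at a lower fold limit. Those called lower at P1 numbered 0 with 10 CPM added, a minimum mean of 50 CPM or 2-fold, and 1 was called higher at P1 and at P5 at the lower fold limit. Between E16.5 and P1 in Lhx6 cells, 3 were called higher at a minimum of 50 CPM and 1 at 2-fold, and 2 lower at a lower fold limit. From P1 to P5 in Lhx6 cells, 0 of 9 were lower with 10 CPM added (18.3%) or at 2-fold (8.92%), and 1 of 6 at a minimum of 50 CPM (20.2%). In Nos1 cells from E16.5 to P1, 1 of 8 was lower with 10 CPM added (12.7%). At 2-fold, 0 of 8 were higher (9.79%) and 0 lower (5.26%). From P1 to P5 there, 1 was lower at a minimum of 50 CPM, 5 at the lower fold limit and 1 at 2-fold. Between cells high and low in the members, the other enzymes had ratios of 0.099 at P1 and 0.36 at P5 with cells thinned to 1000 UMIs, and of -0.11 at E16.5 in Nos1 cells.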
